A study of Mus musculus with 4 samples.

Results

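Macrophages are phagocytes of the innate immune system that settle in most tissues and can make up a large part of a solid tumour. They engulf dying cells and antibody-coated targets, digest them in lysosomes, and depend on the transcription factor PU.1 for their development. The 9 genes described here are commonly used to recognise them: Spi1, which encodes PU.1; Adgre1, which encodes the surface antigen F4/80; Cd68 and Laptm5, which encode a lysosomal glycoprotein and a lysosomal membrane protein; the receptor genes Mertk, for uptake of dying cells, and Msr1, a scavenger receptor; Lyz2, which encodes lysozyme; Mpeg1, which encodes the pore-forming protein perforin-2; and Aif1, which encodes the actin-binding protein IBA1. They were taken by name from a list drawn up with earlier results of these data known, and each matched 1 of the 43432 Ensembl genes in the count table through GENCODE M21.

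Tumours were 9464D-GD2 neuroblastomas, a mouse line that displays the ganglioside GD2, grown under the skin of female C57BL/6 mice. One group received 25 µg dinutuximab, an antibody against GD2, plus 20 µg small extracellular vesicles (sEVs) released by 9464D-GD2 cells, and the other received 25 µg dinutuximab alone, each for 5 treatments. Each group holds 2 tumours, numbered 3 and 4 in the labels, which do not say what the number means. All 4 tumours had the antibody, no tumour without it was analysed here, and the age of the mice was not given in the sources used here. RNA came from whole tumour tissue, so fewer cells of a type and less RNA per cell cannot be told apart.

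Libraries held 26164711 and 28187573 counts with sEVs and 26312447 and 24452699 counts with dinutuximab alone. The chi-square per degree of freedom between the tumours of a group was 26.4 with sEVs and 23.9 with dinutuximab alone, so neither pair was 1 library deposited again. Of the 13823 genes that passed the low-count filter, 0 were called by edgeR's quasi-likelihood test, and the smallest Benjamini-Hochberg adjusted p was 0.360. Neuroblastoma transcription factor genes were present in all tumours: Hand2 had 4299 and 4956 counts with sEVs and 3942 and 3532 counts with dinutuximab alone. The ribosomal RNA read genes and the early response and heat shock genes, which read RNA quality and tissue handling, had lower medians in both sEV tumours than in both dinutuximab tumours. Of these genes edgeR called 0, and DESeq2 called Gm26917 (adjusted p = 0.00317) and mt-Rnr1 (adjusted p = 0.0488) among the ribosomal RNA read genes and Atf3 (adjusted p = 0.00611) among the early response genes, all lower with sEVs. Their median log2 CPM, relative to each gene's mean over the 4 libraries, was -0.10 and -0.30 with sEVs against 0.17 and 0.25 with dinutuximab alone for 5 ribosomal RNA read genes. It was -0.29 and -0.15 with sEVs against 0.30 and 0.17 with dinutuximab alone for 12 early response and heat shock genes. Their part in the results below was not tested.

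PU.1 binds purine-rich DNA around a GGAA core, and RefSeq promoter windows (GRCm38.p6, from 250 bases before to 50 after the start) were at hand for 6 of the 9 genes. The exact motif GAGGAA was searched on both strands, and other sequences around GGAA were not. A window without GAGGAA can still hold a GGAA core, as the Lyz2 sequence below does. It was found in the windows of Cd68, Aif1 and Laptm5 and not in those of Lyz2, Mertk and Mpeg1, and 28.3% of all 32851 windows of that length hold it. The longer form GAGGAAGT, which contains GAGGAA, was in 0 of the 6 windows and in 3.20% of all windows. The sequences shown are the bases before the annotated start, 5′ to 3′ on the gene's strand. Mertk and Lyz2 are shown because their levels ranked the tumours in the same order as Spi1, and Cd68 because its level changed least among the tumours; capitals mark GAGGAA.
Mertk, chr2:128698665-128698914, plus strand: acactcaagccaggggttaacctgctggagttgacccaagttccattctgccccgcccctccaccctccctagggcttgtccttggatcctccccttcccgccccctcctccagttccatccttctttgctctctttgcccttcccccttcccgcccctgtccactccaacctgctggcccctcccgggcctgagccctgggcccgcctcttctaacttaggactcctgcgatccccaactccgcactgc
Lyz2, chr10:117282322-117282522, minus strand: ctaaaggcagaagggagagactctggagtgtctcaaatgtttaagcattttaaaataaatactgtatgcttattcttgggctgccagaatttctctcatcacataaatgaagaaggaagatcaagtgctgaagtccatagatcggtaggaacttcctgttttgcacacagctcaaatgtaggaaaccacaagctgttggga
Cd68, chr11:69666171-69666420, minus strand: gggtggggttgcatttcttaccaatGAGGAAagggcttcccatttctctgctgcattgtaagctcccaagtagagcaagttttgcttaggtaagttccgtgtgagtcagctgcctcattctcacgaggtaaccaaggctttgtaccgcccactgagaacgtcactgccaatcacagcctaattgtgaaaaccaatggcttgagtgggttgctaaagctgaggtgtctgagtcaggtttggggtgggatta
A match describes letters in the window, and binding of PU.1 was not measured.

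All 9 genes are protein-coding and were located on GRCm38. On chromosome 2, with both genes on the plus strand, Spi1 (ENSMUSG00000002111) lies at 91082390 to 91115756 and Mertk (ENSMUSG00000014361) at 128698956 to 128802894. Laptm5 (ENSMUSG00000028581) lies on chromosome 4 at 130913125 to 130936141 (plus strand), and Msr1 (ENSMUSG00000025044) on chromosome 8 at 39581685 to 39642673 (minus strand). Lyz2 (ENSMUSG00000069516) lies on chromosome 10 at 117277331 to 117282321 (minus strand) and Cd68 (ENSMUSG00000018774) on chromosome 11 at 69664213 to 69666153 (minus strand). Chromosome 17 holds Aif1 (ENSMUSG00000024397) at 35170991 to 35176068 (minus strand) and Adgre1 (ENSMUSG00000004730) at 57358691 to 57483527 (plus strand). Mpeg1 (ENSMUSG00000046805) lies on chromosome 19 at 12460779 to 12465283 (plus strand). No other annotated gene shares exon bases with any of the 9, although the antisense gene Gm14011 and the small RNA gene Gm23172 overlap the span of Mertk.

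All 9 genes were measured well above the low-count filter in every tumour. The lowest count was 329, for Mertk in dinutuximab tumour 3, which carries a counting error of 5.51%, and Lyz2 had up to 34197 counts. Scaled for gene length as TPM, Lyz2 averaged 2528 TPM with sEVs and 1853 TPM with dinutuximab alone. Cd68 came next, at 387 TPM with sEVs and 346 TPM with dinutuximab alone, and both genes stood clear of their neighbours in every tumour. Laptm5 averaged 82.9 TPM with sEVs and 76.6 TPM with dinutuximab alone. Adgre1 averaged 59.0 TPM with sEVs and 57.7 TPM with dinutuximab alone, and its highest tumour (66.3 TPM) passed the lowest of Laptm5 (65.5 TPM). Mpeg1 averaged 42.9 TPM with sEVs and 42.1 TPM with dinutuximab alone, Spi1 42.3 TPM with sEVs and 32.3 TPM with dinutuximab alone, and Aif1 38.3 TPM with sEVs and 29.0 TPM with dinutuximab alone. These 3 overlapped among the tumours and kept no fixed order, and the range of Mpeg1 also met that of Adgre1. Msr1, at 19.8 TPM with sEVs and 13.9 TPM with dinutuximab alone, and Mertk, at 14.4 TPM with sEVs and 10.04 TPM with dinutuximab alone, were the lowest and overlapped with each other.

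Between the groups, 0 of the 9 genes passed the edgeR test after adjustment over all genes, where 0% of the genes tested were called. Fold changes with sEVs over dinutuximab alone were above 0 for 7 of the 9 genes, with a median log2 fold change of 0.32, against 50.3% of genes above 0 and a median of 0.00 over all genes tested. At an unadjusted p under 0.05, edgeR had 1 of the 9 higher (Lyz2) and 0 lower, where 2.47% of genes tested were higher and 3.10% lower. DESeq2 and limma-voom also called 0 of the 9 after adjustment. Over all genes, limma-voom called 0, and DESeq2 called 0.450% of those to which it gave an adjusted p. Both sEV tumours lay above both dinutuximab tumours in 4 of the 9 genes (Spi1, Lyz2, Mertk and Cd68), where 18.1% of genes tested did. Both lay below in 0 of the 9, where 16.5% did, and the groups overlapped in the other 5. Endothelial and fibroblast genes had medians below 0. All 8 endothelial genes had log2 fold changes below 0, with a median of -0.48, and both sEV tumours lay below both dinutuximab tumours in 5 of them; edgeR and DESeq2 called 0 of them, and 2 were lower at an unadjusted p under 0.05. The 8 fibroblast genes had a median log2 fold change of -0.58, with 3 above 0 and 5 below; at an unadjusted p under 0.05, edgeR had 2 higher and 4 lower. The collagen gene Col1a2 had a log2 fold change of -1.57 and was called by DESeq2 (adjusted p = 0.0330) and not by edgeR, and the growth factor receptor gene Pdgfrb had -0.94. The 2 higher ones, the collagen gene Col3a1 (0.37) and the proteoglycan gene Dcn (0.54), were named after their values were seen. The part of these cell types in the fold changes of the 9 genes was not tested. With 2 tumours against 2, an exact two-sided permutation test of a single gene cannot go below p = 0.333, so none is given.

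**Figure D1:**
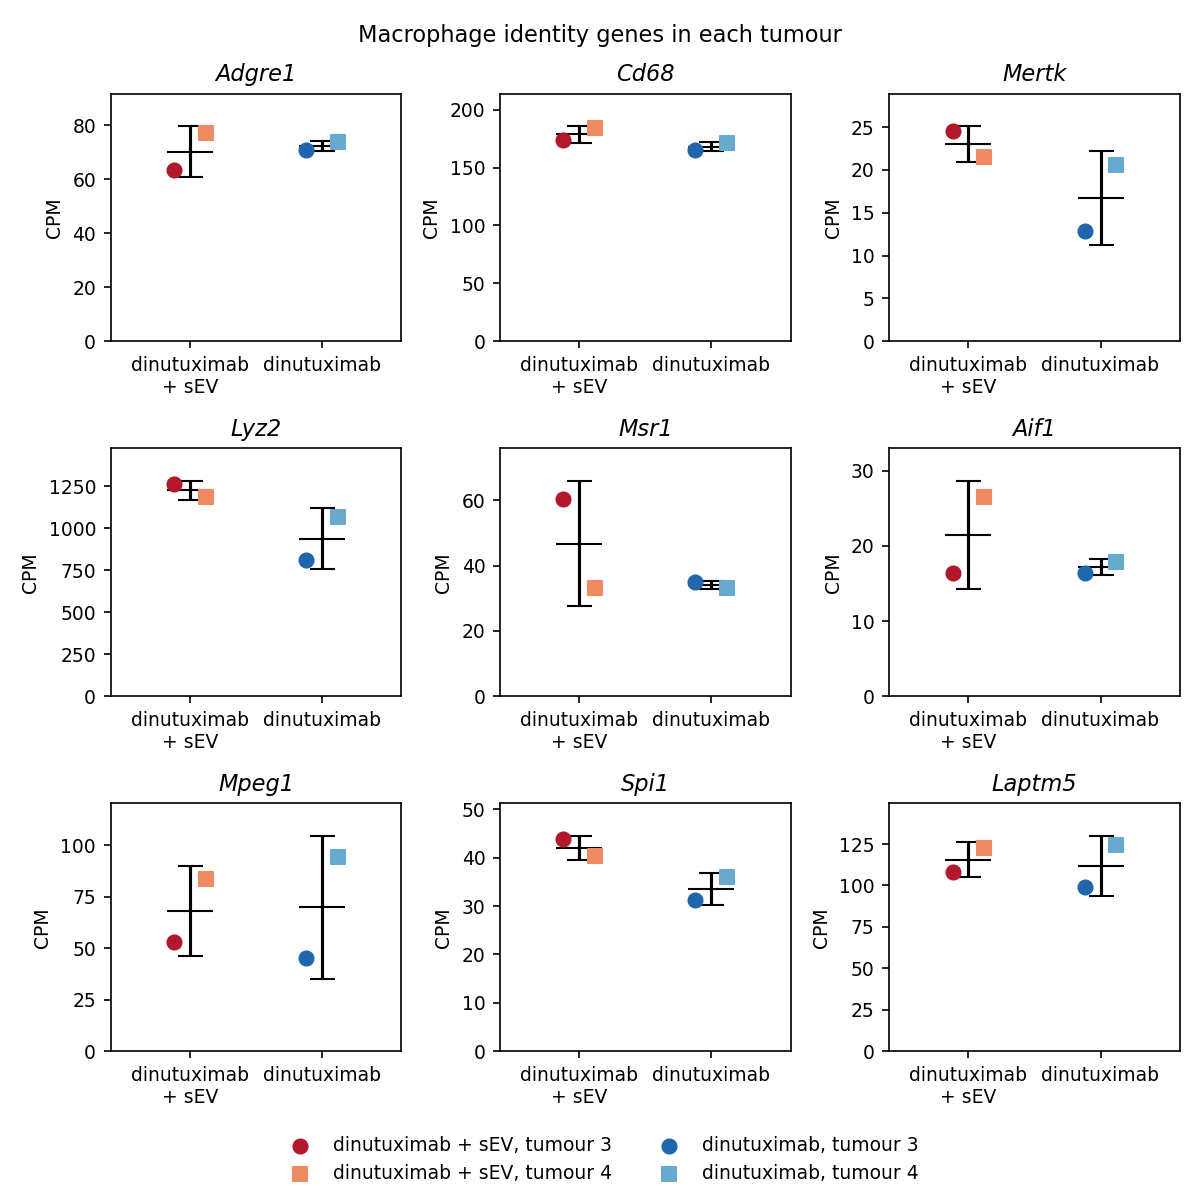
CPM of each of the 9 genes in each tumour (y axis from 0, a scale per gene), dinutuximab plus sEVs on the left and dinutuximab alone on the right, with bars for the mean ± SD of 2 tumours. Lyz2, Mertk, Spi1 and Cd68 show no overlap between groups, Msr1 and Aif1 are each raised in a single sEV tumour, and Mpeg1 splits by tumour number in both groups.

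The regulator gene Spi1 had 43.8 and 40.3 CPM in sEV tumours 3 and 4, against 31.3 and 36.0 CPM in dinutuximab tumours 3 and 4. The groups did not overlap, and the nearest tumours, sEV tumour 4 and dinutuximab tumour 4, were 40.3 and 36.0 CPM. The means were 42.1 ± 2.48 CPM with sEVs and 33.6 ± 3.32 CPM with dinutuximab alone (SD, n = 2 each), a log2 fold change of 0.32 ± 0.15 (SE; edgeR adjusted p = 0.885).

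Lyz2, whose product breaks down bacterial cell walls, made up between 63.0% and 70.0% of the counts of the 9 genes in each tumour. It had 1267 and 1185 CPM in sEV tumours 3 and 4, against 811 and 1066 CPM in dinutuximab tumours 3 and 4. Dinutuximab tumour 3 stood lowest, and the sEV tumours lay closer to each other than the dinutuximab tumours did. The means were 1226 ± 57.5 CPM with sEVs and 939 ± 181 CPM with dinutuximab alone (SD, n = 2 each), a log2 fold change of 0.39 ± 0.15 (SE; 95% interval 0.04 to 0.73; edgeR unadjusted p = 0.0345, adjusted p = 0.849). Without dinutuximab tumour 3 the log2 fold change was 0.20, and without dinutuximab tumour 4 it was 0.60. The near copy Lyz1, whose transcripts share 15.4% of the 50-base words of Lyz2, had 314 and 147 counts with sEVs and 115 and 172 counts with dinutuximab alone, so the assignment of some reads between them is uncertain.

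Mertk encodes a receptor kinase that binds dying cells through the bridging proteins GAS6 and protein S. It had 24.5 and 21.5 CPM in sEV tumours 3 and 4, against 12.8 and 20.6 CPM in dinutuximab tumours 3 and 4. Dinutuximab tumour 3 stood apart below the other 3, which lay within 4 CPM of one another. The means were 23.0 ± 2.12 CPM with sEVs and 16.7 ± 5.50 CPM with dinutuximab alone (SD, n = 2 each), a log2 fold change of 0.46 ± 0.23 (SE; edgeR adjusted p = 0.887). Without dinutuximab tumour 3 it was 0.16, and without dinutuximab tumour 4 it was 0.84.

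Cd68 was the steadiest of the 9, with 174 and 184 CPM in sEV tumours 3 and 4 and 165 and 171 CPM in dinutuximab tumours 3 and 4. Although the groups did not overlap, the closest tumours differed by less than the tumours within a group. The log2 fold change was 0.09 ± 0.12 (SE; 95% interval -0.20 to 0.37; edgeR adjusted p = 0.9497), and its range over the 4 libraries was wider than that of only 8.37% of genes tested.

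Adgre1, the F4/80 gene, had 63.4 and 76.9 CPM in sEV tumours 3 and 4, against 70.8 and 73.6 CPM in dinutuximab tumours 3 and 4. The sEV tumours lay on either side of both dinutuximab tumours. Its log2 fold change was -0.04 ± 0.14 (SE; 95% interval -0.37 to 0.28; edgeR adjusted p = 0.981), and it was 0.08 without sEV tumour 3.

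Msr1, which takes up modified lipoproteins, had 60.3 and 33.1 CPM in sEV tumours 3 and 4, against 34.9 and 33.2 CPM in dinutuximab tumours 3 and 4. Only sEV tumour 3 was high, and sEV tumour 4 was the lowest of the 4. The log2 fold change of 0.45 ± 0.25 (SE; edgeR adjusted p = 0.892) rested on that tumour, being -0.05 without sEV tumour 3. Without sEV tumour 4 it was 0.83 and was called (edgeR adjusted p = 0.00629), the only one of the 9 so called when a tumour was left out, in a fit where 2.23% of genes were called.

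Aif1 mirrored this in the other sEV tumour, with 16.4 and 26.5 CPM in sEV tumours 3 and 4, against 16.4 and 17.9 CPM in dinutuximab tumours 3 and 4. Only sEV tumour 4 was high, and the other 3 lay within 2 CPM. The log2 fold change was 0.32 ± 0.23 (SE; edgeR adjusted p = 0.909), 0.62 without sEV tumour 3 and -0.07 without sEV tumour 4.

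Mpeg1 split by tumour number in both groups. It had 52.8 and 83.5 CPM in sEV tumours 3 and 4, against 45.3 and 94.4 CPM in dinutuximab tumours 3 and 4. Both tumours numbered 4 were high and both numbered 3 were low. The log2 fold change was -0.04 ± 0.32 (SE; 95% interval -0.78 to 0.71; edgeR adjusted p = 0.994), the widest interval of the 9.

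Laptm5, which acts in receptor turnover in lymphoid and myeloid cells, had 108 and 123 CPM in sEV tumours 3 and 4, against 98.9 and 125 CPM in dinutuximab tumours 3 and 4. The tumours ranked as for Mpeg1, over a narrower span. The log2 fold change was 0.05 ± 0.15 (SE; 95% interval -0.31 to 0.40; edgeR adjusted p = 0.980). T and NK cells are a source of Laptm5 other than macrophages. The summed CPM of their 9 listed genes was also higher in both tumours numbered 4. It reached 5.08 and 12.8 CPM in sEV tumours 3 and 4, and 5.65 and 8.15 CPM in dinutuximab tumours 3 and 4. The NK cell genes Ncr1 and Klrb1c went the other way, at low counts. Ncr1 had 11 and 8 counts in sEV tumours 3 and 4, and 10 and 8 counts in dinutuximab tumours 3 and 4. Klrb1c had 6 and 5 counts with sEVs, and 15 and 8 counts with dinutuximab alone. Gzmb was also slightly lower in dinutuximab tumour 4 (2.87 CPM) than in dinutuximab tumour 3 (2.96 CPM). The part of T and NK cells in the Mpeg1 and Laptm5 levels was not tested.

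**Figure D2:**
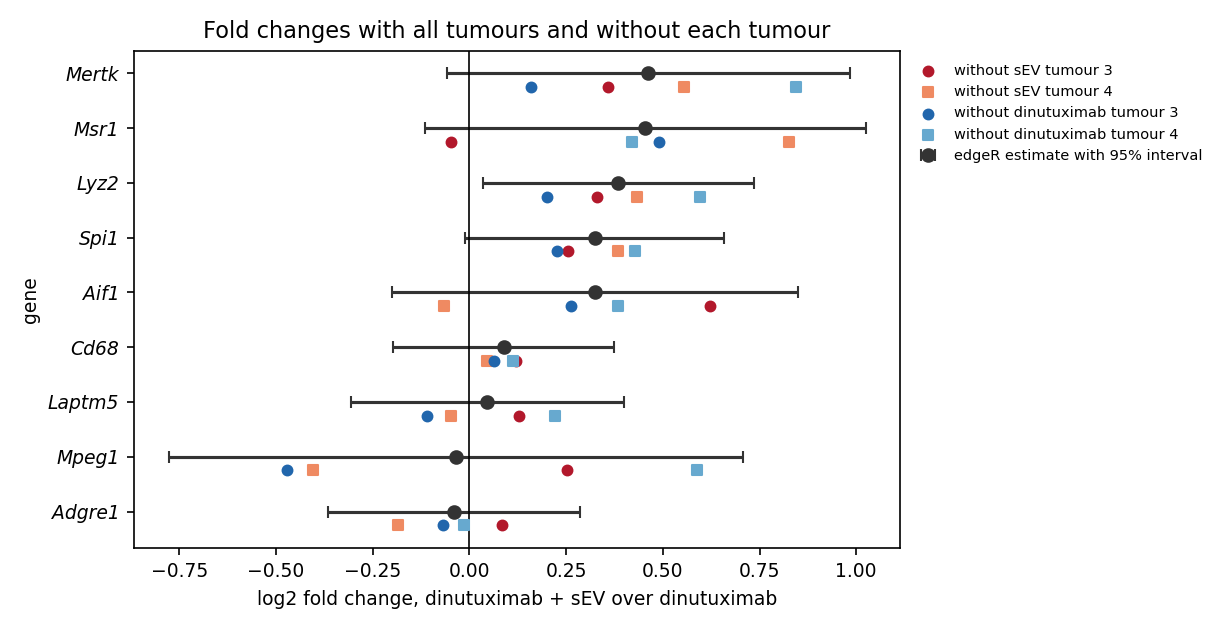
Log2 fold change of each gene, dinutuximab plus sEVs over dinutuximab alone (x axis), with black points and bars for the edgeR estimate and its 95% interval and coloured points for the fits without 1 tumour. Of the 9 intervals, that of Lyz2 lies above 0; Msr1, Aif1, Mpeg1, Laptm5 and Adgre1 change sign with the tumour left out.

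The 9 genes did not all rank the tumours in the same order. Over the 4 libraries, which the genes share, Pearson r of log2 CPM was above 0 in 28 of 36 pairs of members, with a median of 0.541 and a range from -0.938 to 0.987, given as a description. Ranked from high to low, the 4 tumours took 5 different orders of the 24 possible. Spi1, Lyz2 and Mertk shared 1 order (sEV tumour 3, sEV tumour 4, dinutuximab tumour 4, dinutuximab tumour 3), which 6.13% of genes tested had. Mpeg1 and Laptm5 shared another (dinutuximab tumour 4, sEV tumour 4, sEV tumour 3, dinutuximab tumour 3; 5.00% of genes tested), and Adgre1 and Aif1 another again (sEV tumour 4, dinutuximab tumour 4, dinutuximab tumour 3, sEV tumour 3; 4.08%). Msr1 had the reverse of the order of Adgre1 and Aif1. In both groups 5 of the 9 genes were higher in the tumour numbered 4 (Adgre1, Cd68, Aif1, Mpeg1 and Laptm5), where 28.2% of genes tested were. The pairs of tumours are described, not tested.

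The ratio between members changed accordingly. Lyz2 stood at 7.30 and 6.44 times Cd68 by CPM in sEV tumours 3 and 4, and at 4.91 and 6.23 times in dinutuximab tumours 3 and 4. The ratio of Mpeg1 to Cd68 was 0.304 and 0.454 with sEVs against 0.274 and 0.552 with dinutuximab alone. The summed CPM of all 9 genes was 1809 and 1774 with sEVs and 1287 and 1638 with dinutuximab alone, which did not overlap. Without Lyz2 the sum was 543 and 589 CPM with sEVs against 476 and 571 CPM with dinutuximab alone, which did.

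**Figure D3:**
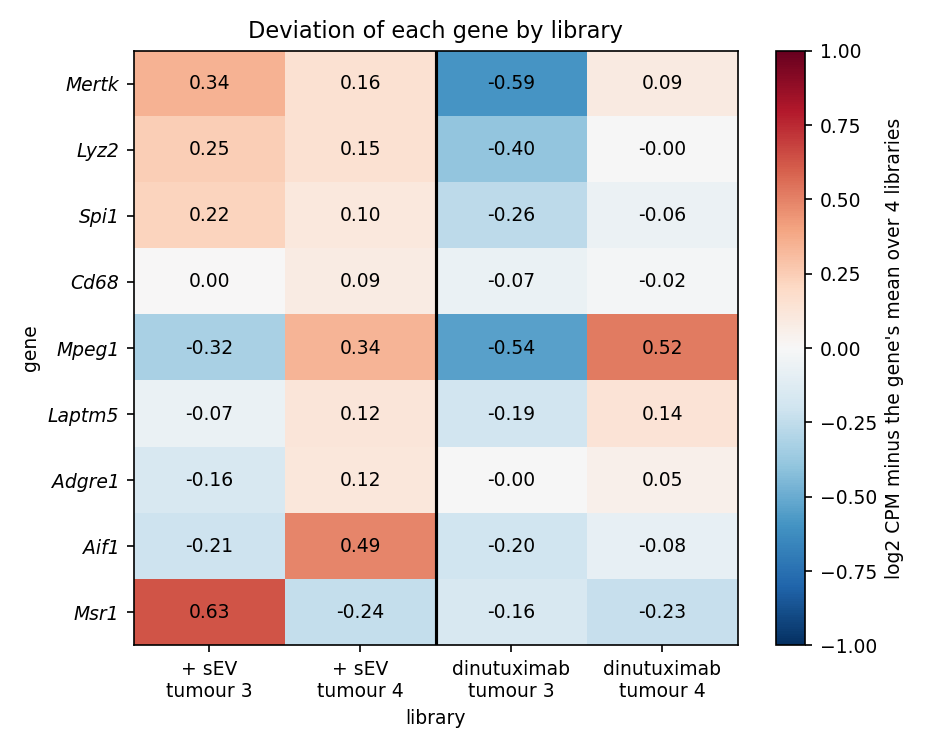
Log2 CPM of each gene (rows) in each tumour (columns) minus the gene's mean over the 4 libraries, red above and blue below it. Spi1, Lyz2 and Mertk share a pattern, Mpeg1 and Laptm5 share another, and Msr1 and Aif1 each peak in a different sEV tumour.

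Dinutuximab tumour 3 had the lowest level of the 4 tumours for Mertk, Lyz2, Spi1, Cd68, Mpeg1 and Laptm5. All 9 lay below their own mean there, by a median of 0.20 on the log2 scale, whereas 4 of 9 lay above it in dinutuximab tumour 4, 5 in sEV tumour 3 and 8 in sEV tumour 4. Paired against dinutuximab tumour 3, the members had a median log2 difference of 0.22 in sEV tumour 3 and 0.37 in sEV tumour 4. Paired against dinutuximab tumour 4, it was 0.02 in sEV tumour 3 and 0.06 in sEV tumour 4. Within the dinutuximab group, tumour 3 had a median of -0.20 against tumour 4, with 8 of the 9 lower in tumour 3. Without dinutuximab tumour 3 the median log2 fold change between the groups was 0.16, without sEV tumour 4 it was 0.05, and without dinutuximab tumour 4 it was 0.42.

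Other macrophage genes also had mostly positive fold changes. Of 19 tested genes from a list of 20 other macrophage genes, 0 passed the edgeR or the DESeq2 test and 18 had fold changes above 0, with a median log2 fold change of 0.19. At an unadjusted p under 0.05, 1 was higher and 0 lower, and the groups did not overlap in 9, all with sEVs above, where 18.1% of genes tested lay above without overlap and 16.5% below. Fcgr1, the high-affinity IgG receptor gene, had 42.3 and 36.4 CPM with sEVs and 28.6 and 28.1 CPM with dinutuximab alone (log2 fold change 0.47 ± 0.15 SE). Siglec1, a sialic acid receptor gene, had 0.31 ± 0.15 (SE) and the complement gene C1qb 0.26 ± 0.12 (SE). Like the 9 genes, this list was lowest in dinutuximab tumour 3, at a median of -0.19 relative to each gene's mean. The lists of scavenger receptors (-0.21), dying-cell uptake genes (-0.17), myeloid transcription factors (-0.15), lysosome genes (-0.09) and leukocyte genes (-0.06) were also lowest there. So were the 4 neuroblastoma genes (-0.10). The monocyte list differed, with a median of 0.301 in dinutuximab tumour 3 and its lowest, -0.265, in dinutuximab tumour 4. In sEV tumours 3 and 4 its median was 0.445 and -0.089.

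Among 12 myeloid transcription factor genes other than Spi1, 7 had fold changes above 0 and 5 below, with a median log2 fold change of 0.05, and 0 passed the edgeR or the DESeq2 test (by edgeR 1 higher and 1 lower at an unadjusted p under 0.05). Maf had 40.7 and 39.4 CPM with sEVs and 27.2 and 29.9 CPM with dinutuximab alone (log2 fold change 0.49 ± 0.14 SE). Cebpb lay the other way, with 67.4 and 82.7 CPM with sEVs and 102 and 110 CPM with dinutuximab alone (-0.50 ± 0.14 SE), as did Runx1 (-0.28 ± 0.15 SE). Of 11 tested genes for the uptake of dying cells, Mertk left out, 9 had fold changes above 0 (median 0.22). The edgeR test called 0 of them. The integrin gene Itgb3 had 0.59 ± 0.13 (SE) and was called by DESeq2 (adjusted p = 0.0422) and not by edgeR. Tyro3, a receptor kinase of the Mertk family, had 0.36 ± 0.18 (SE), and Pros1, which encodes protein S, had 0.37 ± 0.21 (SE).

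Scavenger receptors related to Msr1 differed among themselves. Of 7 tested, 5 had fold changes above 0 (median 0.38) and 0 passed the edgeR or the DESeq2 test, with 3 higher and 1 lower at an unadjusted p under 0.05. Olr1, a receptor for oxidised lipoprotein, had 130 and 62 counts with sEVs and 19 and 32 counts with dinutuximab alone (log2 fold change 1.79 ± 0.49 SE). Cd36, a fatty acid and lipoprotein receptor gene, had 0.45 ± 0.15 (SE). Marco had 5 and 6 counts with sEVs and 20 and 14 counts with dinutuximab alone (-1.74 ± 0.54 SE). The 12 lysosome genes had a median of 0.11, with 8 above 0 and 0 called by edgeR or DESeq2; Lamp2, a lysosomal membrane gene, had 0.30 ± 0.12 (SE). Among relatives of the 9 genes, Aif1l had 75.7 and 48.9 CPM with sEVs and 35.2 and 36.4 CPM with dinutuximab alone (log2 fold change 0.80 ± 0.20 SE; edgeR adjusted p = 0.568; DESeq2 adjusted p = 0.0488).

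Genes shared by most leukocytes had a median log2 fold change of 0.14, with 7 of 12 above 0 and 0 called by edgeR or DESeq2. Their summed CPM overlapped between groups, at 1229 and 1026 with sEVs and 1239 and 999 with dinutuximab alone. Arhgdib made up the largest part of each sum, with 668 and 517 CPM with sEVs and 740 and 481 CPM with dinutuximab alone. Ptprc, the CD45 gene, had 20.7 and 21.6 CPM with sEVs against 17.6 and 19.4 CPM with dinutuximab alone. Monocyte genes had a median of 0.43 (7 of 8 above 0, 0 called by edgeR or DESeq2); Ccr2, which encodes a chemokine receptor of monocytes, had 12.6 and 15.4 CPM with sEVs and 4.29 and 8.60 CPM with dinutuximab alone (1.12 ± 0.31 SE). Markers of other immune cells were scarce. The summed levels of 11 neutrophil genes reached at most 6.00 CPM in any tumour, with Ly6g, Elane and Ngp at 0 counts in all 4, and 7 of the 11 had at most 3 counts in every tumour. Those of 9 dendritic cell genes reached at most 8.93 CPM, of 9 T and NK cell genes 12.8 CPM, of 6 mast cell genes 2.66 CPM and of 4 B cell genes 2.95 CPM. Of 5 osteoclast genes only Acp5, which macrophages also express, passed the filter.

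**Figure D4:**
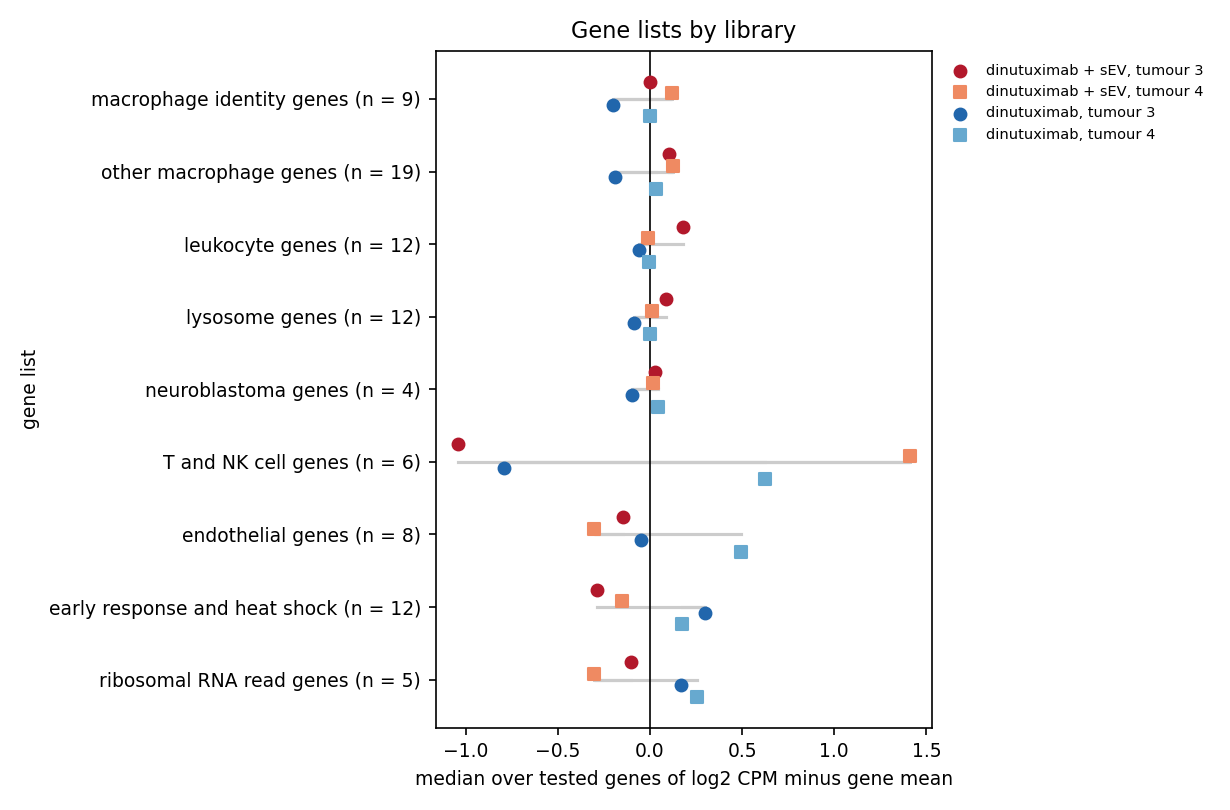
Median over the tested genes of each list of log2 CPM minus the gene's mean over the 4 libraries (x axis), by tumour; n is the number of tested genes, and points are offset vertically within a list. Both macrophage lists and most related lists shown are lowest in dinutuximab tumour 3. The monocyte list, not shown, is lowest in dinutuximab tumour 4. The median of the tested T and NK cell genes, which leave out Ncr1 and Klrb1c, splits by tumour number. The ribosomal RNA read genes are lower in both sEV tumours.

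The genes most alike in pattern to the median profile of the 9 were sought among 4738 protein-coding genes of at least 10 mean CPM whose SD over the 4 libraries was between 0.67 and 1.5 times that of the profile. The 6 of highest Pearson r over the 4 libraries were Phlpp2, Tmem127, Fn3krp, Thoc2, 4930402H24Rik and Bcas3, with r from 0.998 to 0.999. Of the 4738 genes, 102 (2.15%) reached an r of 0.95. Phlpp2, the closest, had 12.4 and 13.8 CPM with sEVs and 10.6 and 12.5 CPM with dinutuximab alone.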

How the data were processed

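The deposited data are raw counts per Ensembl gene; the authors made them from stranded messenger RNA libraries of flash-frozen tumour tissue, per the labels' protocols. Alignment and counting used STAR, HTSeq and SAMtools on mm10, per the submitters' processing notes; the sources used here give no versions, annotation or strand setting, so counts of overlapping genes and near copies are uncertain. All 173728 values were equal in the series table and the tables per sample. Names and exon lengths came from GENCODE M21 (GRCm38, the assembly of mm10).

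The main test was edgeR 4.0.16 under R 4.3.3: filterByExpr, TMM scaling, a quasi-likelihood F test on group alone, and Benjamini-Hochberg adjustment over 13823 genes at 0.05. CPM use TMM-adjusted library sizes; TPM were computed here from counts and exon length. SE follow from the F statistic. In the main fit, the edgeR p-values rest on the spread between 2 tumours a group, combined with a trend over all genes. That trend carries 6.48 prior degrees of freedom there. Much of the spread behind a single gene's p-value and SE is thus borrowed from other genes. DESeq2 1.42.0 and limma 3.58.1 (voom), other scalings and filters, a tumour-number term and leaving out each tumour were alternatives. The members and the 19 other lists were chosen with earlier results of these data known. Genes named from other lists were up to 3 of lowest unadjusted p, or served as controls; the 6 genes alike in pattern followed a set rule. DESeq2 gave no adjusted p to some low-count genes. Lilrb4a and 3 ribosomal RNA genes had no row under these names.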

Additional observations from a re-analysis of the deposited data

How the results depend on the processing

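None of the 9 macrophage identity genes was called under the alternatives run, except Msr1 when sEV tumour 4 was left out; called members thus ranged from 0 to 1 over the 4 fits without a tumour. Over all genes, edgeR called 0; DESeq2 called 55 and edgeR without the low-count filter 262. Fits without 1 tumour called between 0 and 316 genes over the whole table. The median log2 fold change of the 9 stayed between 0.29 and 0.36 under every alternative that kept all 4 tumours, and lay between 0.0465 and 0.42 without 1 tumour. The sign of 5 genes changed: Mpeg1 was 0.0259 with limma-voom, and without 1 tumour ranged from -0.47 to 0.59, Adgre1 from -0.186 to 0.0832, Laptm5 from -0.11 to 0.22, Msr1 from -0.0485 to 0.825 and Aif1 from -0.0663 to 0.621. Spi1, Lyz2, Mertk and Cd68 kept a positive sign in all alternatives run. In these genes both sEV tumours lay above both dinutuximab tumours, so their sign without 1 tumour repeats that and adds no support. With the tumour number as a replicate block, edgeR called 67 genes, none of them among the 9, and Mpeg1 was 0.0174; the labels do not say that the numbers pair the tumours, and same-numbered tumours deviated together with a correlation of 0.0943 across genes and 0.393 across the 9. Total-count scaling moved the median of all genes by 0.04. A fit without 1 tumour holds no spread between tumours for the group left with 1. In the fits without an sEV tumour or without the low-count filter, p-values of the 9 matched a normal distribution of log2 fold change over SE. Their spread thus came from the trend over all genes and not from each gene's own tumours. The cause of the differences between the alternatives was not tested.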
